A study of Rattus norvegicus with 40 samples.

Results

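The genes described here are 9 regulators of mitochondrial biogenesis measured in the right ventricle of rats: the coactivators Ppargc1a, Ppargc1b and Perm1, the nuclear receptors Ppara, Esrra and Rxrg, and the mitochondrial polymerases and DNA-packaging protein Polg, Polrmt and Tfam. They were taken by symbol from the array's annotation, and every probe annotated to them was used: 15 probes in 24 spots, out of 40941 probes in 43379 spots and 14861 named genes. Of the 15 probes, 11 probes of 8 genes were tested, because each group had values from 4 or more of its 6 animals. No probe of Ppargc1a reached that number, and 18 of the 24 animals had a value from any of its 3 probes.

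Right ventricles came from 24 male Sprague-Dawley rats in 4 groups of 6. Normal rats were untreated and breathed room air. The hypoxia group lived in 10% oxygen over 4 weeks. SuHx animals were injected once with SU5416 (20 mg/kg), which inhibits vascular endothelial growth factor receptors. They then spent 4 weeks in that oxygen level and a further 2 weeks at sea level. SuHx_carvedilol animals shared the injection and the hypoxia, after which the adrenergic receptor blocker carvedilol was gavaged every day (15 mg/kg, with 20% dimethyl sulfoxide in the vehicle) during 4 weeks of room air. Hypoxia animals had no stated time in room air, so time after hypoxia differed between the groups and cannot be told apart from treatment. No group given vehicle alone, and no ages, were analysed here. In this field SuHx is used as a model of a failing right ventricle under pressure load and hypoxia alone as a model of a loaded ventricle that adapts, so the comparisons ask whether this regulatory network differs between those states and after carvedilol.

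Each value below is a log2 ratio of ventricular RNA (Cy5) to a common reference RNA (Cy3) pooled from 14 rat cell lines. A ratio of 0 means equality with that reference, levels are compared only within a probe, and differences between groups are on the log2 scale. The 24 animals were run on 40 arrays (8 normal, 12 hypoxia, 12 SuHx, 8 SuHx_carvedilol), with 1 mean taken per animal. The number of spots with a value per animal ranged from 28192 to 35758 in normal, 22759 to 28400 in hypoxia animals, 27270 to 29637 in SuHx animals and 26167.3 to 31670 in SuHx_carvedilol animals. Cardiomyocyte markers were far above the reference in the normal group, with median log2 ratios of 5.64 for Mybpc3, 4.81 for Tnni3 and 2.91 for one probe of Myh6. Animal numbers over 100 in the labels belonged to all SuHx_carvedilol animals and to hypoxia animals 5 and 6 and are treated as a possible cohort. No normal or SuHx animal had such a number. In SuHx_carvedilol against either group, a cohort difference therefore cannot be told apart from treatment. A covariate for the cohort rests on the hypoxia animals alone.

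PGC-1 coactivators bind nuclear receptors and other DNA-binding factors and raise transcription of genes for oxidative phosphorylation and fatty acid oxidation. PPAR-alpha (Ppara), which senses fatty acids and pairs with retinoid X receptors such as RXR-gamma (Rxrg), and ERR-alpha (Esrra) are their main receptor partners in heart muscle. Nuclear respiratory factors NRF-1 and NRF-2 (GABP) drive the nuclear genes that copy, transcribe and package mitochondrial DNA: the DNA polymerase gamma subunit Polg, the RNA polymerase Polrmt and the packaging factor Tfam. Perm1 is a muscle regulator that is induced by PGC-1 and ERR and acts on the same target genes.

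After 4 weeks of hypoxia, 7 of the 8 tested genes had a probe that was lower than in normal ventricle, and none rose. The lower genes were Ppargc1b, Perm1, Ppara, Esrra, Rxrg, Polg and Polrmt, and Tfam was the exception. By probe, 8 of 11 were called lower (limma, with a Benjamini-Hochberg adjusted p below 0.05), where 9.78% of all 21567 tested probes were called lower and 0.923% higher. Groups did not overlap for 5 of the 11 probes, against 6.83% of all probes. The median change of the member probes was -1.09, and that of all probes -0.36. In SuHx none of the 11 probes differed from normal by this test. Against hypoxia, Ppargc1b and a probe of Polg were higher in SuHx. In ventricle, as in any tissue, a lower level in bulk RNA cannot separate fewer cells of a type from less RNA per cell.

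**Figure D1:**
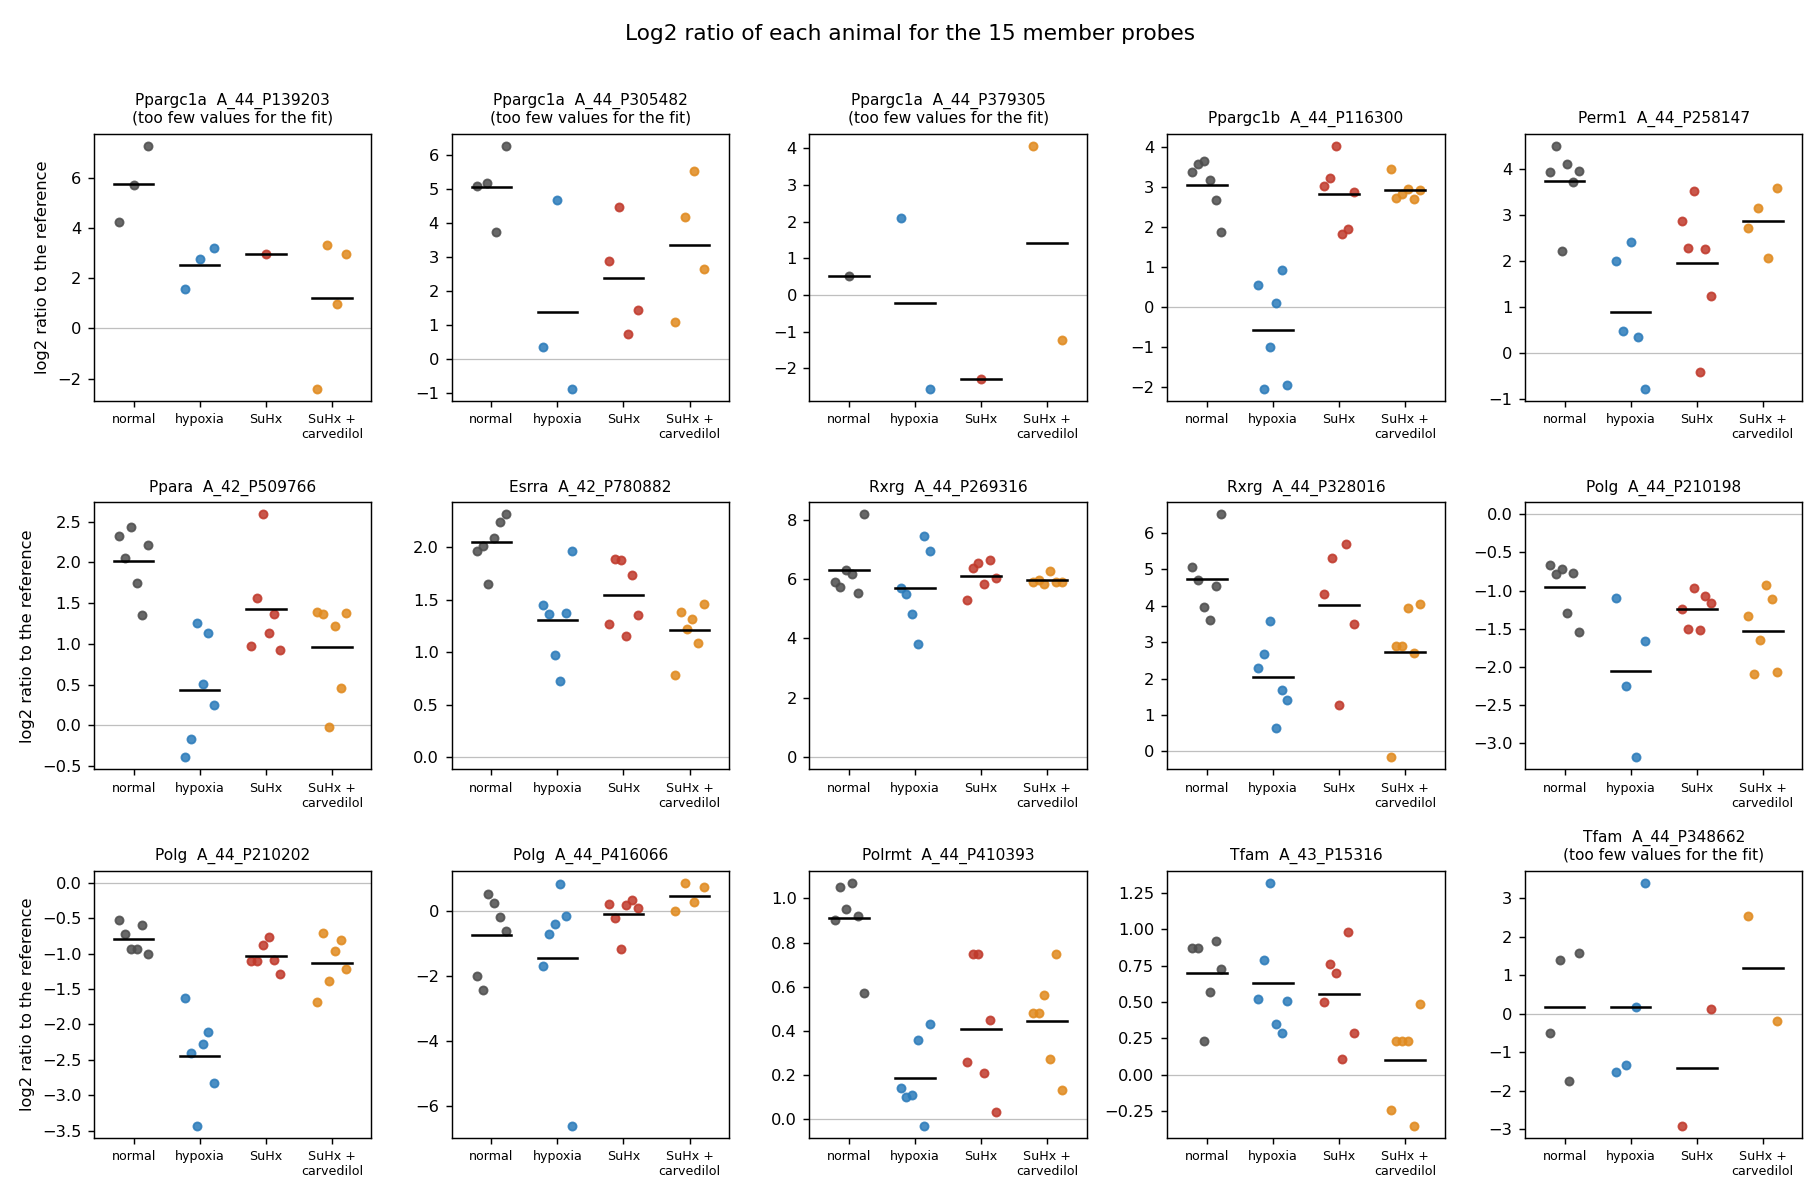
Log2 ratio to the reference (vertical axis, a separate scale for each panel) of each animal (points) in the 4 groups (horizontal axis) for all 15 probes, with the group mean as a bar. For Ppargc1b the 6 hypoxia animals lie between -2.04 and 0.92, below every other animal, while the 4 groups of Tfam A_43_P15316 overlap.

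Ppargc1b, which encodes PGC-1 beta, showed the largest fall in hypoxia among the 11 probes in the limma fit. Its log2 ratio was 3.37, 3.58, 3.64, 3.17, 2.66 and 1.88 in the 6 normal animals. In hypoxia animals it was 0.55, -2.04, -1.0, 0.09, 0.92 and -1.95. In SuHx animals it was 3.01, 3.21, 4.02, 1.82, 1.95 and 2.87, and in SuHx_carvedilol animals 3.45, 2.72, 2.83, 2.94, 2.69 and 2.92. The highest hypoxia animal thus lay below the lowest animal of the other 3 groups, which overlapped one another. The difference of hypoxia from normal was -3.62 ± 0.47 (SE, n = 6 per group, limma adjusted p = 7.75e-05), a 12.3-fold lower ratio, and 0.185% of all tested probes fell further. SuHx was higher than hypoxia by 3.39 ± 0.47 (limma adjusted p = 0.000133), 10.4-fold. SuHx differed from normal by -0.23 with a 95% interval of -1.22 to 0.75, and SuHx_carvedilol from SuHx by 0.11 with an interval of -0.87 to 1.09.

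Ppargc1b was measured on 38 of 40 arrays, and the separation also held by array. The 10 hypoxia arrays with a value ranged from -5.78 to 0.96, the 8 normal arrays from 1.88 to 3.73, the 12 SuHx arrays from 1.55 to 5.35 and the 8 SuHx_carvedilol arrays from 2.52 to 3.45. Repeat arrays of an animal were not tight: hypoxia animal 2 gave -1.17, -5.78 and 0.83 on 3 arrays and no value on its remaining array. The SD between arrays of an animal was 1.5, against 0.84 between animals of a group. Without each animal in turn the fall in hypoxia ranged from -3.92 to -3.33, and the largest adjusted p was 0.000383 (limma).

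**Figure D2:**
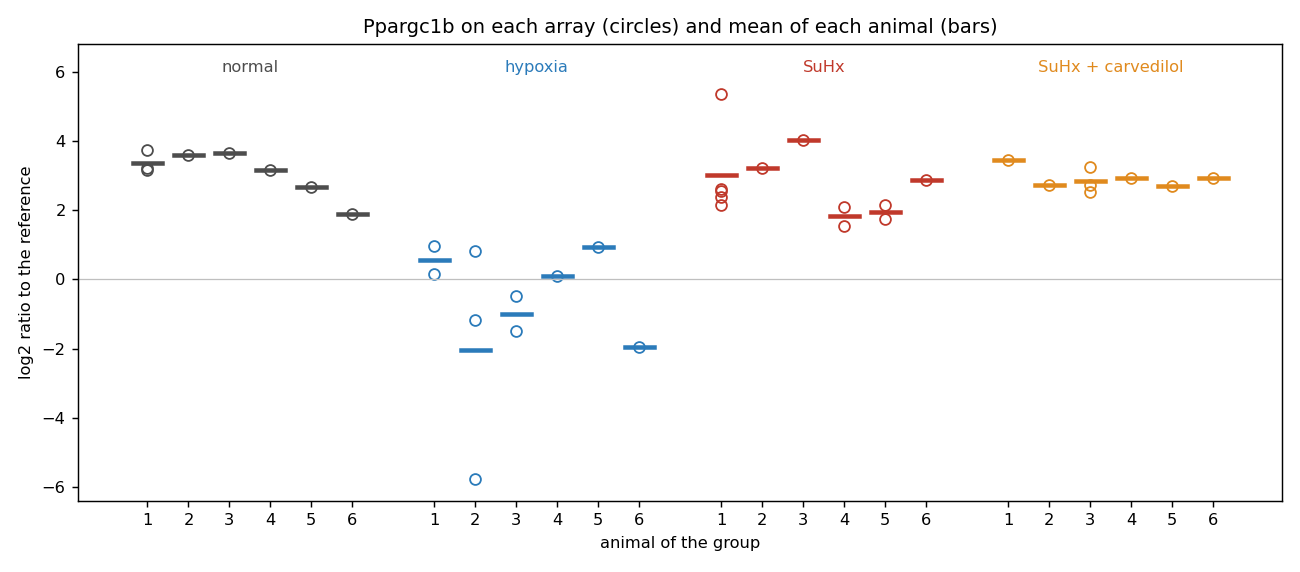
Log2 ratio of Ppargc1b to the reference on each array (circles) with the mean of each animal (bars), for animals 1 to 6 of each group along the horizontal axis. The hypoxia arrays lie at or below 0.96 and every other array at or above 1.55, although 3 arrays of hypoxia animal 2 spread from -5.78 to 0.83.

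Ppargc1a, which encodes PGC-1 alpha, the better-studied inducible coactivator, could be read only in part. Probe A_44_P139203 had a value in 3 normal, 3 hypoxia, 4 SuHx_carvedilol animals and 1 SuHx animal. Its log2 ratio was 4.24, 5.75 and 7.29 in normal animals, 1.57, 2.78 and 3.21 in hypoxia animals, 2.96 in the SuHx animal, and -2.40, 3.34, 0.98 and 2.96 in SuHx_carvedilol animals. All normal values lay above all others on this probe. The difference of hypoxia from normal was -3.24 (two-sided exact permutation p = 0.1, the smallest that 3 against 3 animals allow), and that of SuHx_carvedilol from normal -4.54 (exact permutation p = 0.0571 where 0.0286 is the smallest possible). Probe A_44_P305482 had a value in 15 animals. It gave 5.09, 5.17, 3.72 and 6.26 in normal animals, 0.33, 4.67 and -0.88 in hypoxia animals, 2.88, 4.46, 0.74 and 1.44 in SuHx, and 1.09, 4.17, 5.53 and 2.63 in SuHx_carvedilol animals. Here the groups overlapped, with differences from normal of -3.69 in hypoxia and -2.68 in SuHx (exact permutation p = 0.0571 for each, smallest possible 0.0286). On this probe SuHx_carvedilol differed from normal by -1.71 (exact permutation p = 0.2), with -4.54 on the first probe. The third probe, A_44_P379305, had a value in 6 animals, between -2.55 and 4.06. Over the 12 exact tests of Ppargc1a and the sparse Tfam probe, the lowest Benjamini-Hochberg adjusted p was 0.228. No Ppargc1a difference passed, but the tests had only 3 or 4 animals per group. A single test at the smallest possible p of 0.0286 could not pass after adjustment over the 12. All of the tests able to reach 0.0286, that of the sparse Tfam probe included, would have had to do so together. The adjusted values therefore cannot decide whether Ppargc1a differed between the groups.

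Why values of Ppargc1a were empty is not given in the sources used here. Any of its probes gave a value in 5 normal, 5 hypoxia, 4 SuHx and 4 SuHx_carvedilol animals, on 29 of 40 arrays. Over all 15 member probes, values were present for 85% of probe and array pairs in normal animals, against 70.6% for hypoxia, 77.2% for SuHx and 77.5% for SuHx_carvedilol. Over all probes of the array these shares were 75.5%, 59.5%, 63.8% and 64.0%. Fewer values in hypoxia moved with the member falls, and their part in the result was not tested. Esrra, Rxrg A_44_P269316 and Tfam A_43_P15316 had a value in their spot on every array.

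**Figure D3:**
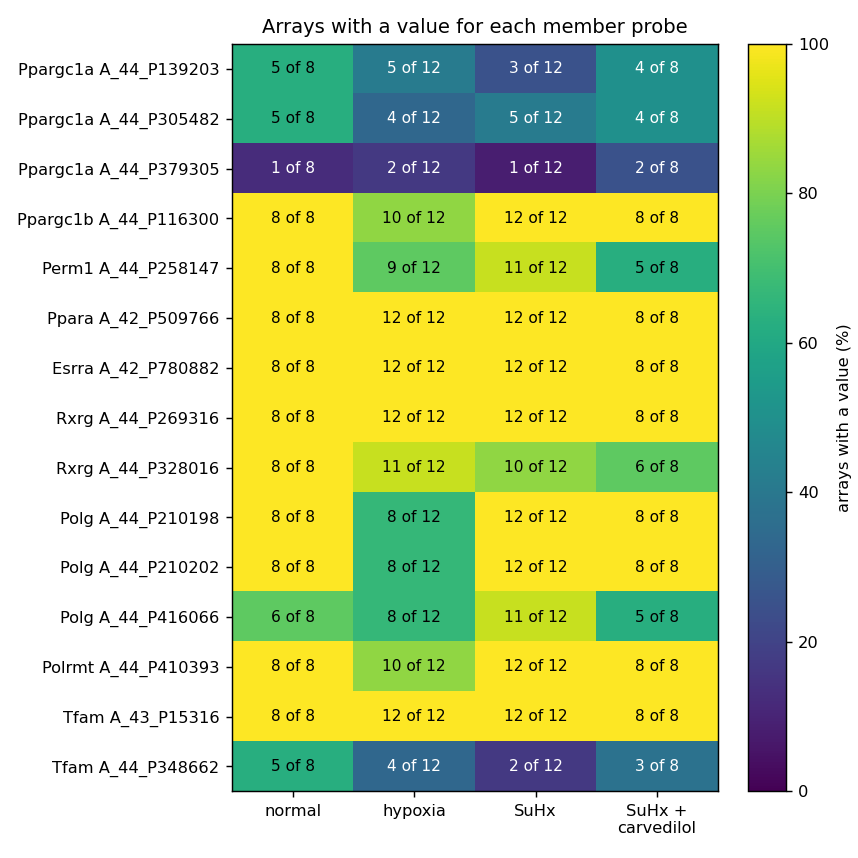
Number of arrays with a value for each of the 15 probes (rows) in each group (columns), coloured by percent of the group's arrays. Esrra, Rxrg A_44_P269316 and Tfam A_43_P15316 have a value on every array, as does at least 1 of the 10 spots of Ppara, while the 3 Ppargc1a probes have one on 17, 18 and 6 of 40.

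The starts of the 2 PGC-1 genes are shown because the coactivators differ there in the letters of the cAMP response element, TGACGTCA, through which CREB is known to induce PGC-1 alpha. The windows run from 250 bases before to 50 after a RefSeq gene start in build GRCr8, 5′ to 3′ on the gene's strand: chr14:63634058-63634357 (+) and chr18:57131417-57131716 (-). Capitals mark TGACGTCA.
Ppargc1a: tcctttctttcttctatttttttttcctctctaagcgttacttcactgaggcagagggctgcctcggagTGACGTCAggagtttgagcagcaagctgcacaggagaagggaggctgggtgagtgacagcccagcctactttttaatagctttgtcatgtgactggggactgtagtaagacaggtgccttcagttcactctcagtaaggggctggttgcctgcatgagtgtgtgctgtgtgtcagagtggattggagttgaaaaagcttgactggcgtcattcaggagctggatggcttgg
Ppargc1b: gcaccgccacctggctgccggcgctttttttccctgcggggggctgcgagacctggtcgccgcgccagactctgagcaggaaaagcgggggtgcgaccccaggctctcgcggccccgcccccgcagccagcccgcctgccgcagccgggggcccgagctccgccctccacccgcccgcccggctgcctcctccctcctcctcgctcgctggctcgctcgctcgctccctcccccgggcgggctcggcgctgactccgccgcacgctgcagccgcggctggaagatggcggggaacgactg
TGACGTCA starts 181 bases before the start of Ppargc1a and is not in the other 8 members' windows; on either strand, 1.83% of 33469 promoter windows hold it. Ppargc1a has further starts elsewhere in its gene, which were not examined. The window of Ppargc1b is 77.0% G and C, that of Ppargc1a 50.3%. GGGCGG, the letters of the SP1 site, stands in 6 of the 9 member windows, Ppargc1b among them, and in 33.1% of all windows.

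Perm1 fell with Ppargc1b. Its log2 ratio in normal animals was 2.22 at the lowest, 3.94 at the median and 4.5 at the highest. In 5 hypoxia animals with a value it ran from -0.77 through 0.49 to 2.41, in 6 SuHx animals from -0.40 through 2.28 to 3.53, and in 4 SuHx_carvedilol animals from 2.06 through 2.93 to 3.59. The hypoxia and normal ranges met only at the lowest normal animal. Hypoxia differed from normal by -2.84 ± 0.64 (limma adjusted p = 0.00842). SuHx differed from normal by -1.77 ± 0.61 (limma adjusted p = 0.19) with a 95% interval of -3.05 to -0.49, and from hypoxia by 1.07 with an interval of -0.27 to 2.41. Perm1 in SuHx therefore lay between the other groups and was not separated from either by the test across all probes. Its order of group means was normal, SuHx_carvedilol, SuHx and hypoxia.

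Among the nuclear receptors, Ppara was measured by 1 probe in 10 spots, of which at least 1 had a value on every array. Of its spots, 71 of 80 had a value in normal (88.8%), 70 of 120 in hypoxia (58.3%), 73 of 120 in SuHx (60.8%) and 60 of 80 in SuHx_carvedilol arrays (75.0%). The loss of spots moved with the fall given next, and its part in that fall was not tested. Its log2 ratio ran from 1.35 through a median of 2.13 to 2.43 in normal and from -0.39 through 0.38 to 1.26 in hypoxia. It ran from 0.93 through 1.25 to 2.59 in SuHx and from -0.02 through 1.30 to 1.39 in SuHx_carvedilol animals. Hypoxia and normal did not overlap, and hypoxia was lower by -1.59 ± 0.34 on the log2 scale (n = 6 per group, limma adjusted p = 0.0046), 3.01-fold. SuHx_carvedilol differed from normal by -1.05 ± 0.34 (limma adjusted p = 0.052), just past the threshold, and SuHx from hypoxia by 1.00 ± 0.34 (limma adjusted p = 0.0614).

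Esrra differed by smaller amounts. Its log2 ratio ran from 1.65 through 2.05 to 2.31 in normal, from 0.72 through 1.37 to 1.96 in hypoxia, from 1.15 through 1.54 to 1.89 in SuHx and from 0.78 through 1.26 to 1.46 in SuHx_carvedilol animals. Hypoxia differed from normal by -0.74 ± 0.21 (limma adjusted p = 0.0266), and 1 hypoxia animal lay within the normal range. It did not pass limma's threshold when normal animal 5 (adjusted p = 0.0602), normal animal 6 (0.0582) or hypoxia animal 4 (0.054) was left out. Esrra was the only member probe called in SuHx_carvedilol against normal, at -0.84 ± 0.21 (limma adjusted p = 0.0134) with groups that did not overlap. Of all probes, 7.33% were called lower and 2.19% higher in that comparison. The 95% interval for SuHx against normal was -0.93 to -0.07, and for SuHx_carvedilol against SuHx -0.77 to 0.09; neither passed.

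The probes of Rxrg disagreed. On A_44_P328016 the log2 ratio ran from 3.62 through 4.63 to 6.51 in normal and from 0.64 through 1.99 to 3.59 in hypoxia, without overlap, a difference of -2.69 ± 0.75 (limma adjusted p = 0.0255). On A_44_P269316, with a value on every array, it ran from 5.54 through 6.04 to 8.18 in normal and from 3.81 through 5.60 to 7.44 in hypoxia, a difference of -0.60 ± 0.49 (limma adjusted p = 0.468). The difference between the probes was not tested. Repeat arrays of an animal had an SD of 2.29 on A_44_P328016 and 1.20 on A_44_P269316. The difference on A_44_P328016 missed the threshold when normal animal 1 (limma adjusted p = 0.052), normal animal 6 (0.0622) or hypoxia animal 4 (0.0526) was left out. It was also lost without hypoxia animals 5 and 6 together (adjusted p = 0.0828) and without the 2 arrays with the fewest values, both of hypoxia animals (-2.03, adjusted p = 0.0935, limma).

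Of the genes that copy and transcribe mitochondrial DNA, Polg and Polrmt were lower in hypoxia and Tfam was not called. Polg probe A_44_P210202 had a log2 ratio from -1.01 through -0.83 to -0.52 in normal and from -3.43 through -2.34 to -1.62 in hypoxia. It ran from -1.29 through -1.09 to -0.77 in SuHx and from -1.68 through -1.09 to -0.71 in SuHx_carvedilol animals. Hypoxia lay apart from normal and SuHx and overlapped SuHx_carvedilol by 1 animal. The difference from normal was -1.66 ± 0.24 (limma adjusted p = 0.000204), 3.15-fold lower, and SuHx was above hypoxia by 1.41 ± 0.24 (limma adjusted p = 0.000827). This probe and A_44_P210198 each had a value on 8 of 12 hypoxia arrays and on every array of the other groups. The part of these missing values in the Polg differences was not tested. Polg A_44_P210198 moved the same way in hypoxia, by -1.09 ± 0.33 (4 hypoxia and 6 normal animals, limma adjusted p = 0.0402). That call was lost in 6 of 24 omissions of an animal, with an adjusted p of up to 0.139 without hypoxia animal 3. The third Polg probe, A_44_P416066, differed by -0.71 ± 0.87 (limma adjusted p = 0.654), and 1 hypoxia animal stood at -6.59 there.

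Polrmt, with the smallest spread of the members (SD between animals of a group 0.22), ran from 0.57 through 0.94 to 1.07 in normal and from -0.03 through 0.13 to 0.43 in hypoxia. It ran from 0.03 through 0.35 to 0.75 in SuHx and from 0.13 through 0.48 to 0.75 in SuHx_carvedilol animals. Hypoxia differed from normal by -0.73 ± 0.17 (limma adjusted p = 0.00737) without overlap. SuHx differed from normal by -0.50 ± 0.17 (limma adjusted p = 0.154) and SuHx_carvedilol by -0.47 ± 0.17 (limma adjusted p = 0.0781). Polrmt in SuHx was above hypoxia by 0.22 with a 95% interval of -0.12 to 0.57, so the difference seen for Ppargc1b and Polg was not detected for Polrmt; whether the genes differ in this was not tested.

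Tfam A_43_P15316, with a value on every array, ran from 0.23 through 0.80 to 0.92 in normal and from 0.29 through 0.52 to 1.32 in hypoxia. The difference was -0.07 with a 95% interval of -0.50 to 0.37. The estimates of the other genes' called probes lay below this interval, the nearest being Polrmt and Esrra. Their own intervals, -1.07 to -0.38 for Polrmt and -1.16 to -0.31 for Esrra, overlapped that of Tfam. Whether Tfam differs from the other genes in this was not tested. In SuHx_carvedilol animals it ran from -0.35 through 0.23 to 0.49, a difference from normal of -0.60 ± 0.21 (limma adjusted p = 0.0742). The second Tfam probe, A_44_P348662, had values in 4, 4, 2 and 2 animals and a mean of 0.18 in both normal and hypoxia animals (exact permutation p = 1).

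The starts of these 3 genes are shown because each holds CCGGAAG, the letters of the NRF-2 (GABP) site, on the strand printed or its complement. The GRCr8 windows are chr1:142808789-142809088 (-), chr7:10609946-10610245 (+) and chr20:17355123-17355422 (+), and capitals mark CCGGAAG or its reverse.
Polg: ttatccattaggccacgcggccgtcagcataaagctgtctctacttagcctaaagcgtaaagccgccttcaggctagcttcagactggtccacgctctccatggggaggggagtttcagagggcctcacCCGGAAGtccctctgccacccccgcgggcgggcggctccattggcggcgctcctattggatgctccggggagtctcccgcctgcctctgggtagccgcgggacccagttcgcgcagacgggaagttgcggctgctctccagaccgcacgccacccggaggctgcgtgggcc
Polrmt: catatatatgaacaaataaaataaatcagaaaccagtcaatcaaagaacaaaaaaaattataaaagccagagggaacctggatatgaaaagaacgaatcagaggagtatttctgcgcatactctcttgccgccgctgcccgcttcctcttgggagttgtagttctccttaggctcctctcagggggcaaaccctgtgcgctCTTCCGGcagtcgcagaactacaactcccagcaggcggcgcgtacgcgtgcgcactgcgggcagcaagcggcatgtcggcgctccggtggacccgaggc
Tfam: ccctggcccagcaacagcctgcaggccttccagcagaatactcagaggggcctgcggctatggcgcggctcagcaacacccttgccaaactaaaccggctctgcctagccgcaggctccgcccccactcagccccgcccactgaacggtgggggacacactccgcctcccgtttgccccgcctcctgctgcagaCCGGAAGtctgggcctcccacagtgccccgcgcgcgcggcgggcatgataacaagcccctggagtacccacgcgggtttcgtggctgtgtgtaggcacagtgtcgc
The match starts 121 bases before the gene start in Polg, 49 in Polrmt and 56 in Tfam, and 8.75% of all promoter windows hold 1 on either strand. None of the coactivators or receptors holds it. GCGCANGCG, for NRF-1, stands in Ppara, Esrra and Polrmt and in 5.8% of all windows. TNAAGGTCA, for ERR, stands in none of the 9 and in 1.2% of all windows, and ACGTG, the core of the hypoxia response element, in none of the 9 and in 19.3%. CTATTT, for MEF2, stands in Ppargc1a and Perm1 and in 12.8%. Polg and Polrmt were called lower in hypoxia and Tfam was not, and whether these genes differ was not tested. The part of any of these letters in the changes was not tested either.

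**Figure D4:**
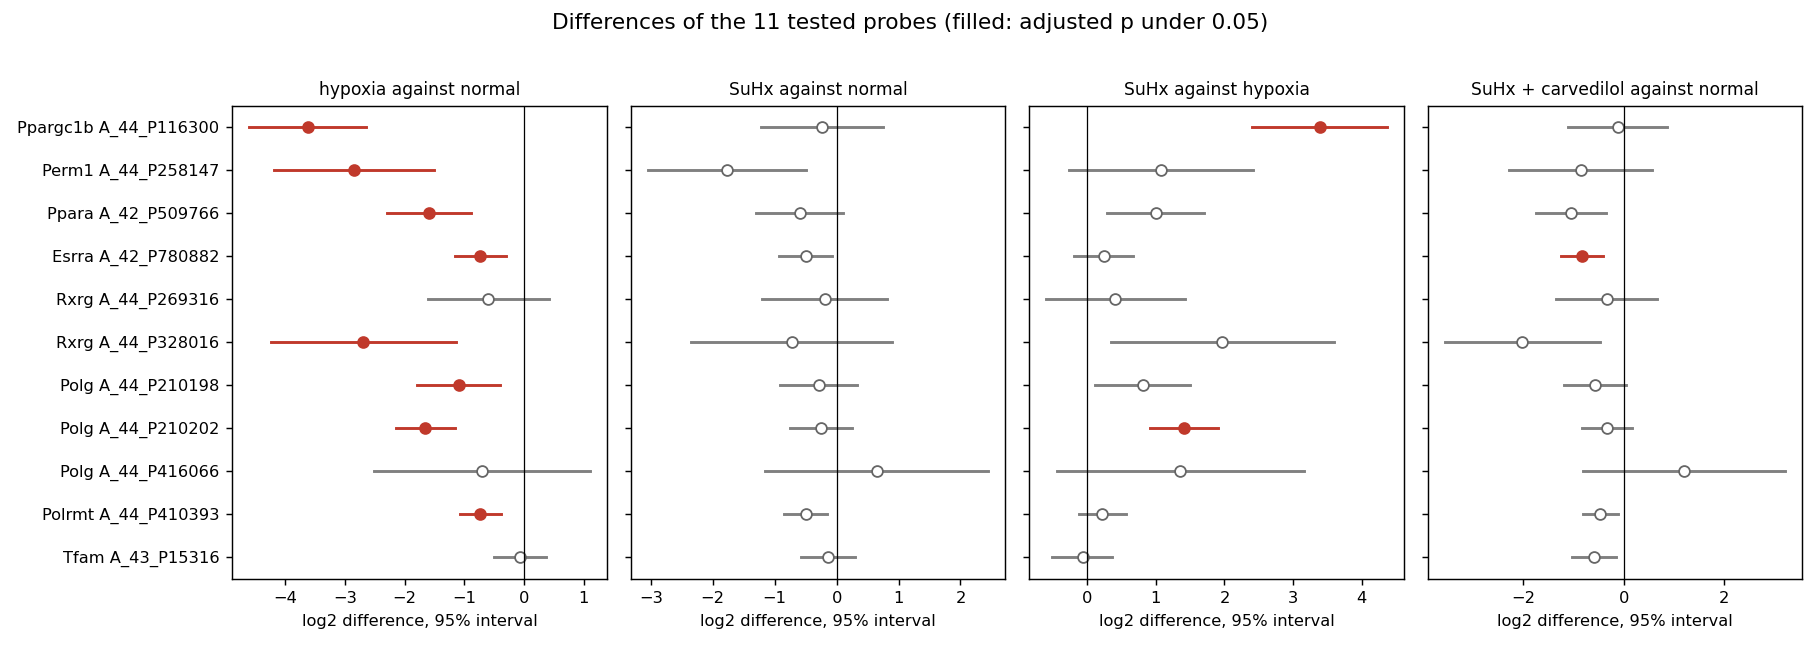
Difference in log2 ratio (horizontal axis) with its 95% interval for the 11 tested probes (rows) in 4 comparisons, each panel with its own scale, filled where the adjusted p is under 0.05. In hypoxia against normal 8 probes are filled, all to the left of 0, and in SuHx against hypoxia 2 are filled to the right.

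Across the comparisons, 7 of 11 member probes differed among the 4 groups in an F test (limma adjusted p under 0.05), where 21.3% of all probes did: Ppargc1b (adjusted p = 3.14e-05), Polg A_44_P210202 (0.000222), Ppara (0.00968), Perm1 (0.0149), Polrmt (0.0167), Esrra (0.0195) and Rxrg A_44_P328016 (0.0355). SuHx against normal called 0 of 11 by limma, against 0.686% of all probes (148, with 2752 at an unadjusted p under 0.05). At an unadjusted p under 0.05, Perm1, Esrra and Polrmt were lower. The median member change there was -0.29 and that of all probes -0.14, and 10 of 11 probes had a difference below 0, as did 60.6% of all probes. SuHx against hypoxia called 2 of 11 higher and none lower, against 8.52% and 2.33% of all probes, and the median member change was 1.00, against 0.22. SuHx_carvedilol against SuHx called 0 of 11 by limma, against 1.33% of all probes, with Tfam at an unadjusted p of 0.0401. The median member change was -0.15, close to the -0.18 of all probes. In SuHx_carvedilol against normal the median member change was -0.57, against -0.31. Hypoxia and SuHx_carvedilol share their normal controls here, and SuHx enters 3 comparisons.

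A shift of all probes bears on the member calls in hypoxia. The median of all probes was below 0 in hypoxia against normal (-0.36, or -0.26 after quantile normalization), and 8.62% of calls were higher, against 20.8% after quantile normalization. With each animal centred on the median of its tested probes, an alternative chosen after seeing the data, 39.0% of calls were higher, and 4 member probes stayed called. This centring moves the group differences of all probes by nearly the same amount, so which members kept a call depends on their distance from the threshold and does not separate kinds of genes. The 4 were Ppargc1b at -3.36 (adjusted p = 0.000404), Perm1 at -2.59 (0.02), Ppara at -1.33 (0.0186) and Polg A_44_P210202 at -1.4 (0.00189). Esrra at -0.48 (0.153), Polrmt at -0.47 (0.101), Rxrg A_44_P328016 at -2.43 (0.0513) and Polg A_44_P210198 at -0.82 (0.156) were no longer called by limma. Under the same centring SuHx against hypoxia kept Ppargc1b at 3.21 and Polg A_44_P210202 at 1.24, and Esrra in SuHx_carvedilol against normal was at -0.64 (limma adjusted p = 0.0533).

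Most heart muscle markers were not called in hypoxia, where 13.1% of all tested genes had a lower probe and 1.23% a higher one. Of 12 tested cardiomyocyte genes 1 was lower in hypoxia than in normal (Ryr2, the calcium release channel, -4.33 ± 0.81, limma adjusted p = 0.00206) and none was higher. Their mean level per animal, relative to the mean over all animals, ran from -0.81 to 0.11 in normal and from -0.98 to -0.05 in hypoxia. In SuHx_carvedilol, 11 of the 12 had a probe higher than normal, with a mean level per animal from 0.26 to 1.71, while Esrra was lower. Over all tested genes, 3.22% had a higher probe in that comparison. By probe, 12 of the list's 17 were higher and 0 lower, where 2.19% of all probes were higher. Probes of a gene could disagree. The median of Myh6 A_44_P462621 was 5.98 in normal and 3.97 in SuHx_carvedilol animals, against 2.91 and 5.16 on A_42_P756334. Ckm, muscle creatine kinase, was higher by 3.11 ± 0.31 (limma adjusted p = 3.44e-06). Other lists stood apart from normal in SuHx_carvedilol as well. The mean level of erythroid markers per animal ran from 0.52 to 1.4, against -0.91 to 0.34 in normal, and that of macrophage markers from 0.36 to 0.95, against -0.63 to 0.05. Hbb-b1, a hemoglobin chain, was higher by 2.55 ± 0.43 (limma adjusted p = 0.000822) and C1qa, a complement component made by macrophages, by 2.72 ± 0.47 (limma adjusted p = 0.00109). Of 7 atrial genes 5 had a probe higher than normal and 0 a lower one. Their mean level per animal overlapped, from -0.65 to 2.02 in SuHx_carvedilol and from -0.48 to 0.87 in normal. The part of these rises in the Esrra result was not tested. Of other lists, 0 of 12 macrophage, 1 of 12 fibroblast, 2 of 12 endothelial and 1 of 9 smooth muscle and pericyte genes were lower in hypoxia than in normal, and none was higher. Of 8 adipocyte genes 2 were higher and 1 lower, 1 of 5 erythroid genes was lower, and 2 of 7 atrial genes were lower. The mean level of smooth muscle and pericyte markers per animal, on the same centred scale, ran from -0.18 to 0.30 in normal and from -0.95 to -0.24 in hypoxia. Their part in the member falls was not tested.

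Some marker lists also moved with the rise of Ppargc1b and Polg A_44_P210202 in SuHx against hypoxia. Over all tested genes, 11.7% had a probe called higher in this comparison and 2.66% one called lower. The mean level of macrophage markers per animal ran from -0.98 to -0.47 in hypoxia and from -0.02 to 1.06 in SuHx, and 5 of 12 genes were higher, C1qc by 2.56 ± 0.59 (limma adjusted p = 0.00821). Smooth muscle and pericyte markers ran from -0.95 to -0.24 in hypoxia and from -0.23 to 0.73 in SuHx, with 1 of 9 genes higher. Of 12 fibroblast genes 4 were higher, Postn, a matrix protein of activated fibroblasts, by 3.92 ± 0.72 (limma adjusted p = 0.00187). Of 12 endothelial genes 3 were higher and 1 lower, with Eng, the endothelial co-receptor endoglin, higher by 2.56 ± 0.48 (limma adjusted p = 0.00207). Of 12 cardiomyocyte genes 2 were higher. Of 7 atrial genes 3 were higher and 0 lower, and 30.8% of the list's 13 probes were higher, against 8.52% of all probes. The median change of the atrial probes was 0.14, against 0.22 for all probes. Of 8 adipocyte genes 1 was higher and 2 were lower, and of 5 erythroid genes 0 were called. The counts of the cardiomyocyte and the smooth muscle and pericyte genes lay near the share of all genes. The part of these changes in the Ppargc1b and Polg results was not tested.

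The lists around the members are read here against all named genes: 13.1% of 9775 tested genes had a probe called lower in hypoxia than in normal and 1.23% one called higher. In SuHx against hypoxia these shares were 2.66% lower and 11.7% higher. Genes with several probes have more chances of a call, so shares of probes are given too, to be set beside 9.78% of all probes lower in hypoxia. Of 20 tested genes for replication and transcription of mitochondrial DNA, a list that holds Polg, Polrmt and Tfam, 6 had a lower probe and 1 a higher one, and 29.6% of its 27 probes were lower. Polg and Polrmt are among these 6 genes, so the count is not independent of the member calls. Lonp1, the matrix protease that degrades Tfam, was lower on probe A_44_P1055681, by -1.92 ± 0.21 on the log2 scale (limma adjusted p = 1.44e-05), and Twnk, the mitochondrial DNA helicase, by -0.64 ± 0.15 (limma adjusted p = 0.00952). That Lonp1 probe was also higher in SuHx than in hypoxia, by 1.4 ± 0.21 (limma adjusted p = 0.000255). The other Lonp1 probe, A_44_P348334, was called in neither comparison, with -0.61 (limma adjusted p = 0.458) in hypoxia against normal and a difference of opposite sign, -0.34 (limma adjusted p = 0.714), in SuHx against hypoxia. Of 7 nuclear respiratory factors and related genes, 0 were called by limma in any of the 5 comparisons, and at an unadjusted p under 0.05 there was 1 gene in hypoxia against normal and 1 in SuHx_carvedilol against normal. This list also holds Myc, Sp1, Hcfc1 and Nfe2l2. It has only 10 tested probes, so 0 lower in hypoxia is close to the 9.78% of all probes. With an SE of 1.44 for Nrf1 and 1.02 for Gabpb1 in that comparison, large differences could have gone uncalled. No mitochondrially encoded gene was on the array under the symbols searched.

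Of 25 tested genes upstream of PGC-1, 7 had a lower probe in hypoxia than in normal and 1 a higher one, and 17.8% of its 45 probes were lower. Prmt1, an arginine methyltransferase, differed by -1.09 ± 0.17 (limma adjusted p = 0.000409). Mapk14, the p38 kinase that activates PGC-1 alpha, differed by -0.90 ± 0.18 (limma adjusted p = 0.00331), and Cited4, a transcriptional cofactor linked to heart growth in exercise, by -1.82 ± 0.48 (limma adjusted p = 0.0196). Yy1, a DNA-binding partner of PGC-1 alpha, was higher on probe A_42_P575140, by 0.65 ± 0.14 (limma adjusted p = 0.00518). Its other probes had values of -0.32 (A_43_P13424, limma adjusted p = 0.699) and -0.31 (A_44_P820184, limma adjusted p = 0.424), so the direction of Yy1 is uncertain. In SuHx against hypoxia 3 of these genes were higher and 2 lower (8.89% and 6.67% of probes), with Prkaa2, the AMP-activated kinase subunit, up by 1.91 ± 0.46 (limma adjusted p = 0.01). Of 13 other nuclear receptors and partners 2 were lower in hypoxia, Nr1d1 (-1.35 ± 0.42, limma adjusted p = 0.0451) and the thyroid hormone receptor Thra (-1.22 ± 0.39, limma adjusted p = 0.0453), and none was higher.

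Among known targets, part of each list changed in hypoxia. Of 29 tested fatty acid genes under PPAR and ERR, 9 had a lower probe in hypoxia than in normal and 1 a higher one, and 18% of its 50 probes were lower. Cpt1b, which controls entry of fatty acids into mitochondria, differed by -3.18 ± 0.52 on probe A_44_P156582 (limma adjusted p = 0.000594). Its other probe, A_44_P289378, had the opposite sign in that comparison, at 0.76 (limma adjusted p = 0.0814), so Cpt1b is uncertain. The uncoupling protein Ucp3 differed by -2.09 ± 0.44 (limma adjusted p = 0.00405) and Hadha, a subunit of the trifunctional protein of beta-oxidation, by -1.17 ± 0.25 on A_44_P480296 (limma adjusted p = 0.0047), while the other 3 Hadha probes were not called (-1.39 to -0.39). Against hypoxia, Cpt1b A_44_P156582 was higher in SuHx by 2.71 ± 0.52 (limma adjusted p = 0.00189) and A_44_P289378 was at -0.22 (limma adjusted p = 0.663). In that comparison 4 genes of the list were higher and 3 lower (8% of its probes higher and 6% lower). Of 39 tested oxidative genes 10 had a lower probe in hypoxia and none a higher one, and 18.6% of its 70 probes were lower. Among them were Idh3b of the citric acid cycle (-1.71 ± 0.24 on A_44_P196356, limma adjusted p = 0.000161, and -0.44 on A_44_P467856, not called), Got1 of the malate-aspartate shuttle (-2.43 ± 0.45, limma adjusted p = 0.00162) and Ndufv1 of complex I (-1.37 ± 0.27, limma adjusted p = 0.00295). In SuHx against hypoxia 8 of the 39 were higher and none lower, and 12.9% of the list's probes were higher, where 8.52% of all probes were. The median changes over the probes of these lists in hypoxia, -0.50 and -0.46, lay near the -0.36 of all probes.

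In SuHx against normal, 1 of the 29 fatty acid genes was called, Decr1, a reductase of unsaturated fatty acid oxidation, at -1.02 ± 0.21 (limma adjusted p = 0.0242), and 0 of the 39 oxidative genes. At an unadjusted p under 0.05 there were 14 genes in each list, and the median probe changes were -0.67 for the fatty acid list and -0.36 for the oxidative list, against -0.14 for all probes. In SuHx_carvedilol against normal, 11 of the 29 fatty acid genes had a lower probe (28% of the list's probes, against 7.33% of all probes), with Ucp3 at -2.81 ± 0.44 and Decr1 at -1.36 ± 0.21 on A_42_P526030 (limma adjusted p = 0.000421 for each). The other Decr1 probe, A_44_P127497, was at -0.94 and not called. Cpt1b had probes called in opposite directions there. Of the 39 oxidative genes 11 had a lower probe and 3 a higher one (18.6% and 7.14% of the list's probes), where 9.65% of all tested genes had a lower probe and 3.22% a higher one. The 3 higher genes encode muscle forms: Ckmt2, the mitochondrial creatine kinase (3.13 ± 0.45, limma adjusted p = 0.000226), and the cytochrome oxidase subunits Cox8b (3.30 ± 0.48 on A_44_P414273, limma adjusted p = 0.000247, with its other 2 probes at 0.09 and 0.81 and not called) and Cox6a2 (1.57 ± 0.27, limma adjusted p = 0.000925). The cardiomyocyte markers were higher in the same comparison, and their part in these 3 rises was not tested.

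**Figure D5:**
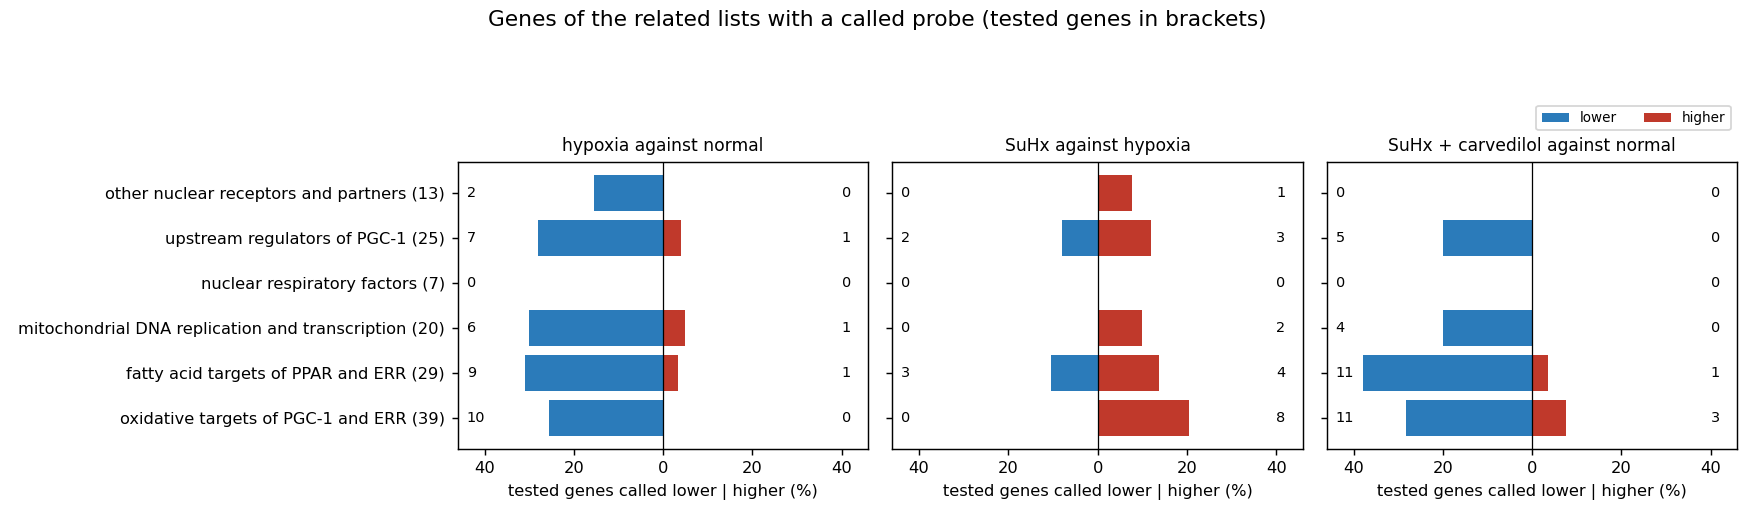
Percent of tested genes of each list (rows, number tested in brackets) with a probe called lower (left, blue) or higher (right, red) in 3 comparisons, with the counts at the panel edges. The list of nuclear respiratory factors and related genes has no call in any panel. The oxidative list has 10 genes lower in hypoxia against normal and 8 genes higher in SuHx against hypoxia.

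The named genes whose log2 ratio was most like that of Ppargc1b, by Pearson's r over the animals with both values, were Ptpn11 (0.91, 24 animals), Sugp2 (0.90, 24), Ubxn1 (0.89, 24), Ubxn4 (0.89, 24), Wbp4 (0.88, 23) and Slc38a10 (0.88, 24), among 12985 probes of 9527 genes. Of these, Ptpn11, the phosphatase SHP2, averaged 2.35 in normal and 0.27 in hypoxia animals, against 2.23 for SuHx and 3.09 for SuHx_carvedilol. All 6 were lowest in hypoxia, which follows largely from their choice by likeness to Ppargc1b, itself lowest there. With each group's mean removed, their r with Ppargc1b ran from 0.29 for Ubxn1 to 0.8 for Ptpn11. Among the members, Polg A_44_P210202 was nearest, with r = 0.84 over 24 animals, and 0.139% of the probes had a higher r. Perm1 had r = 0.67 (21 animals) and Ppara 0.62 (24 animals), while Tfam A_43_P15316 had r = -0.26. These correlations are descriptions: the animals fall into groups, and values of an animal share their arrays and the reference.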

How the data were processed

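Right ventricular RNA of 24 rats was measured on 40 2-colour Agilent arrays, Cy5 for the animal and Cy3 for the reference on every array, per the labels. The deposited values are log2 ratios per spot that the authors normalised by lowess within each array, per the series' design text. The title of 1 deposited table calls them log10. They were read as log2 from their range of -13.64 to 14.01, which is wider than log10 ratios of scanner intensities could be, and every fold rests on that reading. Background correction is not given in the sources used here, nor why 34.85% of cells are empty, so signal over background was not examined. Of the spots, 25353 had 1 gene in the array annotation and 48 several, which were left unnamed.

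Here spots of a probe and then arrays of an animal were averaged. Probes with a value in at least 4 of 6 animals of every group (21567) entered a two-sided limma fit (version 3.58.1, R 4.3.3; lmFit, eBayes) with a mean for each group over all 24 animals, with Benjamini-Hochberg adjustment over all of them and a threshold of 0.05. Errors after ± are standard errors unless named. Other member probes had exact permutation tests over animals. Precision is limited by the number of arrays, with a median SE of 0.50 (log2) for the hypoxia difference. Each probe was kept separate because probes of a gene were missing in different animals. Named genes were every member, up to 4 genes per list and comparison with the lowest adjusted p among called probes, a selection of which is printed, and the 6 genes most like Ppargc1b. The members, lists and motifs were chosen with earlier results of these data known. Promoter windows are from RefSeq, build GRCr8, and all 9 members matched. The fit was tested on simulated data with independent normal noise, known changes and the empty cells of the real data. That test does not cover empty cells that depend on signal. Replicate numbers in the labels count the arrays of an animal, and the labels give no pairing of animals between groups. Animals were numbered within each group here, and deviations of same-numbered animals correlated above 0.1 in 5 of 36 pairs.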

Additional observations from a re-analysis of the deposited data

Results flagged for a closer look

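In 7 of 50 groups of 4 to 6 animals, 1 animal of a member probe stood apart by Dixon's criterion; chance flags about 5% of groups. SuHx_carvedilol animal 1 had the highest Ppargc1b log2 ratio, 3.45, with the next at 2.94 and the lowest at 2.69. It also had the lowest Rxrg A_44_P328016 ratio, -0.16, with the next at 2.69. Normal animal 3 had the lowest Perm1 ratio, 2.22, with the next at 3.72, and hypoxia animals reached 2.41. Normal animal 6 had the highest Rxrg A_44_P269316 ratio, 8.18, with the next at 6.32, and the lowest Polrmt ratio, 0.57, with the next at 0.90. SuHx_carvedilol animal 4 had the highest Rxrg A_44_P269316 ratio of its group, 6.28, with the next at 5.97. Hypoxia animal 6 had a Polg A_44_P416066 ratio of -6.59, with the next at -1.68. The call of Rxrg A_44_P328016 in hypoxia was lost without normal animal 6, which was not the animal set apart on that probe.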

How the results depend on the processing

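Apart from omissions of an animal, 15 other settings were run. Of 154 values of the 11 called member differences under them, 132 stayed called, 22 were no longer called and 0 changed direction. Both Ppargc1b calls, Perm1 in hypoxia and Polg A_44_P210202 in SuHx against hypoxia stayed called under every setting in which their probe was tested. The count of 8 member probes in hypoxia against normal was 4 with animals centred on the median of tested probes (a setting added after seeing the data), 2 of 4 tested with values on all 40 arrays and 4 of 8 tested with the first array of each animal, and 6 to 8 in omissions of an animal. The 0 of SuHx against normal was 1 with arrays scaled to equal spread and 1 with all arrays and animal as a random block (Polrmt in both), and 0 in every omission. The 2 of SuHx against hypoxia were 3 with quantile normalization, with equal spread and without the 2 arrays with the fewest values (Ppara added, limma adjusted p = 0.0296, 0.0232 and 0.0139). They were 1 with values on all 40 arrays (Ppara, limma adjusted p = 0.0256, as Ppargc1b and Polg were not tested there). With the first array the count was 1 (Ppargc1b, as Polg A_44_P210202 was not tested there). It was 2 to 3 in omissions (Ppara, Rxrg or Polg A_44_P210198 added). SuHx_carvedilol against SuHx stayed at 0 under all settings. The 1 of SuHx_carvedilol against normal was 0 with centred animals, 4 with quantile normalization, 5 with equal spread, 3 of 4 with values on all arrays, 4 without the 2 arrays with the fewest values, and 2 with the mean over probes, the random block, the 2 groups alone and the cohort covariate, and 1 to 3 in omissions (3 without hypoxia animal 3). Ppara joined Esrra in 7 of these settings. The 7 of the F test were 4 with centred animals, 3 of 4 with values on all arrays, 3 of 8 with the first array, and 6 to 8 in omissions. The mean over probes moved Polg to -1.25 (limma adjusted p = 0.0509) in hypoxia, and averages probes that disagree. For other calls the cause was not tested.

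With the replicate block, 7 member probes were called in hypoxia against normal (Polg A_44_P210198 at an adjusted p of 0.0517), 2 in SuHx against hypoxia, 0 in SuHx against normal, 0 in SuHx_carvedilol against SuHx, 1 in SuHx_carvedilol against normal and 6 in the F test. That block is the running number given here to the animals of each group. It is not a pairing from the labels and does not pair the animals (correlations from -0.33 to 0.22).

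Over all probes, calls in hypoxia against normal numbered 2308 (1471 without normal animal 5, 1475 without 2 and 1500 without 1), and 1055 (2 groups alone) to 3496 (equal spread) under other settings. SuHx against normal had 148 calls (11 omissions moved this by over 1.5 times, from 40 without SuHx animal 4 to 243 without SuHx animal 3), and 22 (first array) to 830 (2 groups alone). For SuHx against hypoxia they numbered 2340, and 1099 (mean over probes) to 3323 (random block). In SuHx_carvedilol against SuHx they numbered 287 (6 omissions moved this as far, down to 78 without SuHx animal 5), and 34 (first array) to 858 (random block). In SuHx_carvedilol against normal they numbered 2053, and 545 (cohort covariate) to 2927 (equal spread), and in the F test 4600, and 2191 (mean over probes) to 5765 (equal spread). Shares of higher calls moved with centring from 46.6% to 67.2% for SuHx against normal (27.8% with equal spread), from 78.5% to 56.8% for SuHx against hypoxia, from 46.7% to 64.4% in SuHx_carvedilol against SuHx and from 23.0% to 47.4% in SuHx_carvedilol against normal. With the cohort covariate, 58.9% of calls in SuHx_carvedilol against normal were higher. Signal over background was not available, so it is not known which ratios rest on dim spots.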

Other observations

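Within groups, the members varied together less than across them. Over 51 pairs of tested probes of different genes, the median Pearson r of the log2 ratios was 0.38 across all animals, and 0.01 after each group's mean was removed (-0.58 to 0.75). The highest within-group values joined Tfam A_43_P15316 with Rxrg A_44_P328016 (0.75, 23 animals) and with Perm1 (0.70, 21 animals), and Perm1 with Rxrg A_44_P328016 (0.69, 20 animals). Ppargc1b and Polg A_44_P210202, at 0.84 across animals, were at 0.33 within groups. These are descriptions over animals that share arrays with repeat noise: the consensus correlation of arrays of an animal, beyond their group, was 0.045 over all tested probes, and 9 of 24 animals had repeat arrays (1 normal, 4 hypoxia, 3 SuHx and 1 SuHx_carvedilol).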
